A study of Branchiostoma belcheri with 2 samples.

Results

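The let-7 and miR-98 probes of a microRNA (miRNA) microarray were compared between gills of the lancelet *Branchiostoma belcheri*, an invertebrate chordate also called amphioxus, after a control injection and after one of lipopolysaccharide (LPS), a component of the Gram-negative bacterial envelope that many animals sense as a sign of infection. The set held every miRNA probe named let-7 or miR-98 after its 3-letter species prefix, which gave 40 of 1686 probes, with 40 distinct sequences from 9 of the 11 species on the array. The control group was 1 array of gill RNA from adult animals given 15 µl of phosphate-buffered saline (PBS) into the body cavity, and its label gives no collection time. The LPS group was 1 array of gill RNA from adult animals given the same volume of LPS at 1 mg/ml in PBS and collected at 12 h. How many animals were pooled for an array is not stated in the sources used here. With 1 array per group, no test between the groups was possible, no p-value is given, and treatment and array cannot be told apart.

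miRNAs are short RNAs that pair with messenger RNAs, mainly through the seed (bases 2 to 8 from the 5′ end), and lower their translation or stability. let-7 was found in the nematode *Caenorhabditis elegans* as a regulator of developmental timing, and its mature sequence is among the most conserved of bilaterian animals. In vertebrates the family has many members with the same seed, miR-98 among them, which differ in the centre and the 3′ part. The mature strand comes from the 5′ arm of the hairpin (5p), and the opposite strand (3p) is usually the less abundant product.

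The zebrafish let-7a sequence, the reference for all edit counts, is shown with its seed in capitals, followed by the probes on which the results turn, with each base that differs from it in capitals. Sequences are the targets listed in the deposited scanner files, 5′ to 3′, and positions are counted from 1 at the 5′ end of dre-let-7a. Prefixes are dre for zebrafish, xtr for a clawed frog, pma for sea lamprey, cin and csa for 2 sea squirts, odi for a larvacean, spu for a sea urchin, bbe for *B. belcheri* and bfl for the Florida lancelet *B. floridae*.
dre-let-7a: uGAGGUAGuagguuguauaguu
dre-let-7f: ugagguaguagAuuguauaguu
dre-let-7g: ugagguaguagUuuguauaguu
spu-let-7: ugagguaguagguuAuauaguu
xtr-let-7e: ugagguaguagguuguUuaguu
pma-let-7d: ugagguaguagguuguaAaguu
dre-let-7c: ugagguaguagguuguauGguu
pma-let-7c: ugagguaguagAuuguauGguu
dre-let-7e: ugagguaguagAuugAauaguu
pma-let-7b-5p: ugagguaguagguuUuGuaguu
dre-let-7b: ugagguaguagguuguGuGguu
xtr-miR-98: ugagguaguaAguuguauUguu
dre-let-7d: ugagguaguUgguuguauGguu
cin-let-7d-5p: ugagguaguUgguuguauUguu
cin-let-7e: ugagguaguUgguuguauCgGu

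The opposite strand is represented by 2 amphioxus probes, shown in lower case because they were aligned to no reference. The first is the exact reverse complement of dre-let-7a, and the second is the *B. belcheri* let-7a 3p strand.
bfl-let-7b: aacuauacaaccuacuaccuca
bbe-let-7a-3p: gacuguacaacccguuaccuu

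By strand, 30 of the 40 probes were 5p probes, and 10 were named as 3p or lay closer to the reverse complement of dre-let-7a. All 4 probes named for amphioxus were of the second kind, so each 5p value below comes from a probe named for another animal. Whether amphioxus has the same 5p sequences was not examined. Of the 5p probes, 29 began with the same 8 bases as dre-let-7a, and the other, odi-let-7c, carries an added base at its 5′ end. Where a probe could be aligned without a gap, its substitutions lay between positions 10 and 22, so no probe tested a change in the seed. Of the 5p probes, 1 was identical to the reference, 6 were 1 edit away, 8 were 2 edits away and 15 were 3 or more edits away. Several probes this close in sequence may capture 1 RNA, so they do not measure separate miRNAs, and which amphioxus RNA gave the signal on each was not measured.

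Signal is the median Cy3 pixel intensity of a spot, and each probe had 2 repeat spots per array. Detection required a mean above the 95th percentile of the array's 304 empty spots, which was 121.9 for control and 143.5 for LPS. By this criterion 648 probes were detected on the control array, 339 on the LPS array and 684 on either. Empty spots had a median of 107.3 and an SD of 10.6 on the control array, and 99.8 and 30.5 on the LPS array. Uneven pixels (a pixel SD above 0.5 of the median) were found in 71 LPS spots and 0 control spots of all probes. The part of these differences in the detection counts was not tested. Log2 differences are LPS minus control after background correction and quantile normalization, and the value after ± is the SE over the repeat spots, which is a technical error only. A detected probe was counted as lower or higher on the LPS array when its normalized signal differed by 2-fold or more with no overlap between the control spots and the LPS spots. In bulk RNA, fewer cells of a type and less RNA per cell cannot be told apart.

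Among the 33 detected let-7 and miR-98 probes, 16 were lower on the LPS array (48.5%) and 3 were higher. The remaining 14 did not pass, and the median log2 difference was -0.88. Over all 684 detected probes, 10.5% were lower and 10.5% were higher, with a median of -0.10. The lower members were all 5p probes, 16 of 26 detected, and no opposite-strand probe was lower (0 of 7 detected). The control signals of those 7 lay only -0.41 to 1.54 log2 units above the lowest detected LPS signal. For cin-let-7d-3p, cin-let-7f-3p and pma-let-7b-3p (0.035, -0.35 and -0.41) a 2-fold fall could not have been measured within the detected range. The count therefore cannot compare the strands. The counts of lower and higher members moved with the scaling, and so did those of all 684 probes, of which 72 were lower and 72 higher in this normalization. When the arrays were set to an equal median of the 303 probes that both detected (median scaling below), 11 members were lower and 4 higher, beside 8.33% and 45.9% of all probes. On the calibration spots the members' counts were 12 and 3, beside 9.21% and 25.9%. After loess they were 14 and 1, beside 11.4% and 5.26%, and without any normalization 16 and 0, beside 18.7% and 3.65%. The median over all probes was 0.94 with median scaling, 0.70 on the calibration spots, -0.14 after loess and -0.18 with no normalization. All 33 detected members were detected on the control array, and 14 of them were not detected on the LPS array. Among the 19 detected on both arrays, 10 were lower and 3 higher, with a median of -1.24. Over all 303 probes detected on both, 42 were lower and 59 higher, with a median of 0.27. Of the 16 lower probes, 10 were detected on both arrays. The other 6 were not detected on the LPS array, and for 3 of those the lower bound of the fold in this normalization was under 2. The 7 members detected on neither array (4 of them 5p) had mean intensities of 98.7 to 115.2 on the control array and 82.0 to 116.9 on the LPS array.

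dre-let-7a, the probe with the sequence of the reference, was bright on both arrays and did not pass. Its spots read 57892 and 54298 on the control array and 44532 and 42405 on the LPS array, so the LPS signal was 77.5% of the control signal before normalization. No spot of any member reached 65535, the highest value on the control array. The LPS array ran up to 76957 on other probes, and whether its values were rescaled after scanning is not stated. The normalized log2 difference was -0.56 ± 0.04. Its sign followed the scaling, with 0.76 under median scaling, 0.51 on calibration spots and -0.37 with no normalization. The authors' deposited table gives 29377 for control and 53937 for LPS, a log2 ratio of 0.88 as given, and -0.59 after quantile normalization of it. For this reason the other 5p probes are also given relative to dre-let-7a, as the difference between 2 log2 differences, which no constant scaling of an array can move.

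Among the 6 probes with 1 substitution, the log2 difference ranged from near that of dre-let-7a to far below it. Position 12 carried 2 different bases. With A there, dre-let-7f (G12A) read 56452 and 49401 on the control array and 35216 and 36764 on the LPS array, a log2 difference of -0.68 ± 0.10. With U there, dre-let-7g (G12U) read 33856 and 25031 on the control array and 845 and 780 on the LPS array, a log2 difference of -4.28 ± 0.27. In both probes the LPS spots lay below the control spots, but dre-let-7f kept 68.0% of its control signal and dre-let-7g 2.76%. Relative to dre-let-7a, dre-let-7f stood at -0.11 and dre-let-7g at -3.71, or -0.19 and -4.80 with no normalization.

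The remaining 4 substitutions lay in the 3′ part. pma-let-7d (U18A) read 51331 and 41639 on the control array and 40308 and 37326 on the LPS array, and its log2 difference of -0.33 ± 0.24 did not pass. This was 0.23 above dre-let-7a, close to its own SE. xtr-let-7e (A17U) went from 52616 and 51104 to 12576 and 13766 and was lower (-1.86 ± 0.10). dre-let-7c (A19G) went from 51248 and 47687 to 11692 and 7333 and was lower (-2.25 ± 0.27). Adjacent positions thus gave different values, with 17 and 19 lower and 18 not. spu-let-7 (G15A) read 56149 and 56002 on the control array but 155 and 40489 on the LPS array. Its dim LPS spot had a pixel SD of 152.2, nearly the size of its median, and the count of this probe as lower (-4.59 ± 3.96) rests on that spot. Without it the log2 difference was -0.63, which is -0.06 relative to dre-let-7a. In the authors' deposited table it went from 30892 to 48985 as given, a log2 ratio of 0.67, and stood at -0.76 after quantile normalization of that table.

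Substitutions that leave a G-U pair between let-7a and the complement of the listed sequence were G12A and G15A. The probes with these changes, dre-let-7f and spu-let-7 without its uneven spot, stood at -0.11 and -0.06 relative to dre-let-7a, closer to it than the other 4 in this normalization. That order rests on leaving out the spot, which was chosen after seeing the data. With both spots spu-let-7 stood at -4.03, and the medians were -2.07 with a G-U pair and -1.49 without. With no normalization pma-let-7d (U18A, 0.11) was closer to dre-let-7a than dre-let-7f (-0.19). Of the 4 changes that leave no pair, G12U, A19G and A17U gave lower calls and U18A did not. Over all 6 probes the median relative to dre-let-7a was -1.49, and it was -0.70 without the spots of uneven pixels. These 6 values are 1 probe per change on 1 array per group, so position, base and probe cannot be separated further.

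Of the 8 probes with 2 substitutions, 7 were lower and 1 was higher. dre-let-7e (G12A and U16A) went from 12204 and 7250 to 192.4 and 194.25, the largest fall of a member detected on both arrays in this normalization (-4.69 ± 0.48). With a background offset of 200 that of dre-let-7g was larger. xtr-miR-98 (G11A and A19U), a vertebrate relative of let-7, went from 12049 and 12776 to 262 and 288 (-4.40 ± 0.12). In both probes the LPS spots lay above the detection threshold of 143.5 but kept only 1.99% and 2.21% of the control signal. pma-let-7b-5p (G15U and A17G) went from 22454 and 12857 to 1177 and 668 (-3.30 ± 0.68). pma-let-7c (G12A and A19G) went from 40456 and 30907 to 4545 and 2163 (-2.61 ± 0.55). In all 4 the control spots lay above the LPS spots with no overlap.

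The other lower probes with 2 substitutions had smaller differences. dre-let-7b (A17G and A19G) went from 17112 and 13348 to 2837 and 3171 (-1.26 ± 0.25). dre-let-7d (A10U and A19G) went from 2305 and 1457 to 364 and 277 (-1.24 ± 0.38). Relative to dre-let-7a these were -0.70 and -0.68, but -1.97 and -2.16 with no normalization, because quantile normalization shifts probes of different brightness by different amounts. xtr-let-7b (G12U and A17G) was dim on the control array, at 246 and 223, and was not detected on the LPS array, at 94.3 and 98.3. In this normalization its fold was at least 1.29, although it counted as lower at a measured -1.08 ± 0.07. Its log2 difference was -0.02 with median scaling and -0.26 on calibration spots. Together the 14 probes 1 or 2 edits away had a median of -1.49 relative to dre-let-7a, -2.10 with no normalization and -0.997 without the spots of uneven pixels.

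Pairs of probes that differ from each other at 1 base show the same change on different sequences. A19G was carried by dre-let-7c compared with dre-let-7a and by pma-let-7c compared with dre-let-7f. The log2 difference moved by -1.68 ± 0.27 in the first pair and by -1.93 ± 0.56 in the second, and with no normalization by -2.05 and -2.94. The gap between the pairs was under the SE of the second in the first setting, and wider without normalization. G12A moved it by -0.11 ± 0.11 from dre-let-7a to dre-let-7f and by -0.37 ± 0.62 from dre-let-7c to pma-let-7c, each close to or under its SE. With no normalization the second of these was -1.08. U16A, between dre-let-7f and dre-let-7e, moved it by -4.02 ± 0.49. A17G added to dre-let-7c gives dre-let-7b, and the log2 difference moved up by 0.98 ± 0.37, but by 0.08 with no normalization.

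By location, the 2 probes changed only in the centre (positions 9 to 14) were dre-let-7f and dre-let-7g, described above, and the second stood at -3.60 ± 0.29 relative to the first. The 9 probes changed only in the 3′ part (position 15 and beyond) had a median of -1.29 relative to dre-let-7a, with 7 lower and 0 higher. Without the uneven spots that median was -0.70. The 10 detected probes with changes in both regions had a median of -0.60, with 6 lower and 2 higher. Of these, the LPS array detected 6, with a median of -1.36. The 4 that needed a gap had a median of -0.39, with 2 lower, and the LPS array detected 0 of them. Median control signal went from 41185 for the centre to 322 for probes with a gap. The part of signal and of edit number in these medians was not tested. Among the probes 1 or 2 edits away, position 12 was changed in 5, of which 4 were lower, position 17 in 4, all lower, and position 19 in 6, of which 5 were lower and 1 was higher. Location alone therefore did not order the probes, since the centre and the 3′ part each held values near dre-let-7a and values far below it. Among probes with changes in both regions or with a gap, the values nearest dre-let-7a came from probes not detected on the LPS array. Those classes therefore cannot be read in this way.

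The higher 5p probes were cin-let-7d-5p and cin-let-7e, both of a sea squirt and both with U at position 10. cin-let-7d-5p (A10U and A19U) read 5563 and 5598 on the control array and 9987 and 8050 on the LPS array, a log2 difference of 1.82 ± 0.11. cin-let-7e (A10U, A19C and U21G) read 5656 and 5088 on the control array and 6919 and 8355 on the LPS array, a log2 difference of 1.71 ± 0.14. In each the LPS spots were above the control spots before any normalization. With no normalization the differences were 0.69 and 0.51, under 2-fold, and relative to dre-let-7a they were then 1.06 and 0.88. Their lowest values among the 4 other scalings were those with no normalization. In the deposited table they had log2 ratios of 2.28 and 1.78 as given, and 1.75 and 1.32 after quantile normalization of it.

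dre-let-7d shares U at position 10 and differs from cin-let-7d-5p only by U19G, counted from the sea squirt sequence. Its log2 difference minus that of cin-let-7d-5p was -3.06 ± 0.40, and -3.22 with no normalization. This pair thus held a lower and a higher probe 1 base apart. Of the 4 other detected probes with U at position 19, xtr-miR-98, dre-let-7h (also G11A and A17G) and cin-let-7b-5p (also G15A and A17G) were lower, and dre-let-7i did not pass. dre-let-7j and xtr-let-7g, which combine A10U with G12U and U18C, were detected on neither array.

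Of the 15 probes 3 or more edits away, 11 were detected, all on the control array, and cin-let-7e was the only one also detected on the LPS array. Among the rest, cin-let-7c, which needs a gap to align, went from 2140 and 1938 to 98.5 and 89.8, at least 9.36-fold lower. dre-let-7h went from 973 and 606 to 80.3 and 93.1, at least 3.44-fold lower, and cin-let-7b-5p from 563 and 502 to 85.9 and 95.9, at least 2.55-fold. odi-let-7b (at least 1.95-fold) and cin-let-7a-5p (at least 1.23-fold) also counted as lower. These bounds hold in this normalization only. With median scaling the log2 differences of odi-let-7b and cin-let-7a-5p were -0.46 and 0.032. For 7 of the 11 the control signal lay less than 2-fold above the lowest detected LPS signal, so a 2-fold fall could not have been measured within the detected range. The 5 that did not pass were csa-let-7c, odi-let-7c, odi-let-7d, dre-let-7i and cin-let-7f-5p, with log2 differences from -0.88 to -0.54. odi-let-7c and odi-let-7d each had 1 LPS spot of uneven pixels, without which they stood at -1.32 and -0.99, and odi-let-7c then counted as lower.

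On the opposite strand, the 4 amphioxus probes were detected on both arrays at low signal, with control means of 417 to 626 and LPS means of 277 to 462. bbe-let-7a-3p read 447 and 391 on the control array and 312 and 472 on the LPS array, and it was the only one counted as higher (1.06 ± 0.30). Its raw spots overlapped between the arrays, and the call appeared only after normalization. bfl-let-7a-3p, the same sequence with 1 more U at the end, stood at 0.91 ± 0.20, bbe-let-7a-2-3p at 0.86 ± 0.15 and bfl-let-7b at 0.50 ± 0.09. All 4 were below 0 with no normalization, at -0.02, -0.29, -0.38 and -0.49 in that order. Over the 204 amphioxus probes detected, the median was 0.18, and 34 were higher against 8 lower. Of the 6 other opposite-strand probes, the control array detected 3 and the LPS array 0, and none passed in this normalization. One of these, cin-let-7d-3p, had control spots of 324 and 108, and it counted as lower when only the first spots were used and in the quantile-normalized deposited table. Another, pma-let-7b-3p, counted as higher with median scaling (1.28) and on calibration spots (1.04), although the LPS array did not detect it. On calibration spots bbe-let-7a-3p (0.86) no longer counted as higher.

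miR-100 and miR-125 share a genomic cluster with let-7 in many animals, and miR-99 belongs to the miR-100 family. The array held 5 probes for miR-100, 10 for miR-125 and 0 for miR-99, of which 11 were detected, with 2 lower, 1 higher and a median of -0.47. Over all 684 detected probes 10.5% were lower and 10.5% higher, with a median of -0.10. The LPS array detected 10 of the 11, and the other was 1 of the 2 lower probes. The largest changes were those of cin-miR-125-5p (-2.59 ± 0.24) and bfl-miR-125a-3p (1.496 ± 0.09). Some other miR-125 probes had a control spot at 65535, the highest value on the control array, so their falls may be understated.

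Sequence differences were also compared in other families. Other animals' probes that lay 1 or 2 edits from an amphioxus probe of their own family, detected on the control array, numbered 67 in 21 families. Of these, 14 were lower and 9 higher, and their median relative to that amphioxus probe was -0.34. The corresponding let-7 and miR-98 figures were 11 lower and 1 higher of 14 with a median of -1.49, and no test of this difference was possible. The reference here is a probe named for zebrafish and there one named for amphioxus, so the medians are not on the same footing.

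The maker's calibration spots, which come as perfectly matched and mismatched versions, also differed between the arrays. In 18 of 23 usable pairs the mismatched spots fell more than their matched partners, with a median of -0.94 log2 units in raw intensity (range -3.99 to 1.27). Usable pairs had mismatched spots above the threshold of the control array. A filter on that array alone favours pairs that fall on the other. Of the 4 pairs it left out, the mismatched spots fell more in 1. The 5 exceptions had mismatched control signals of 124.2 to 163.5, near background. The 16 usable pairs above that range all fell more. The rest of the 18 lay within it, at 151.3 and 159.5, and were as near background as the exceptions. In the pair Ctr07-3M05, matched spots went from 23538 to 17413 and mismatched spots from 2517 to 117.3. The part of this behaviour of the arrays in the let-7 result was not tested.

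miRNAs typical of other tissues in vertebrates were lower in shares from 0% to 15.4% of the detected probes of a list, against 10.5% of all detected probes. Muscle miRNAs (miR-1, miR-133, miR-206) had 21 of 35 probes detected, with 3 lower (14.3%) and 0 higher. Neural miRNAs (miR-9, miR-124, miR-183) had 19 of 30, with 2 lower and 2 higher, and gut miRNAs (miR-194, miR-216, miR-217) had 13 of 19, with 2 lower and 0 higher. Blood and endothelial miRNAs (miR-126, miR-142, miR-144, miR-451) had 2 of 16, with 0 lower and 1 higher. The mean intensity of a detected probe ranged up to 748 (control) and 305 (LPS) for muscle, 1882 and 1746 for neural and 21612 and 20427 for gut. The part of tissue composition in the let-7 result was not tested.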

How the data were processed

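Per the labels' protocols, RNA was poly(A)-tailed, tagged for Cy3 staining and hybridised to 1-colour arrays. The authors deposited scanner files with 3968 spots each, whose value is a median pixel intensity on a linear scale, per the file headers, and a table of 1 processed intensity per probe and array. That table's column medians were 6.88 and 3.42 and its lowest value 0.01. Within each array its ranking of detected probes follows the scanner values (Spearman 0.985 for control and 0.978 for LPS). The direction between the arrays can differ, as for dre-let-7a (0.88 as given, -0.37 from the scanner values with no normalization). That table's scaling, background and centring steps stay unknown. The scanner and its software are not stated in the sources used here.

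With limma 3.58.1 (R 4.3.3), spot intensities received normexp correction over all spots (offset 50) and were converted to log2, quantile-normalized over the miRNA spots and averaged over 2 repeat spots. Edits are Levenshtein distances computed in Python 3.11.15. "At least" folds use the higher of the probe's own LPS value and the lowest normalized signal of a detected probe on the LPS array. They hold for the quantile-normalized values only. The calling steps were tested on simulated data with no scale difference between the arrays and with changes placed only in bright probes. That test therefore does not cover the effect of scaling or of low signal on the calls. Members, lists and alternatives were chosen with earlier results of these data known. Every member could be named, those that the results turn on with their spot values. Besides calibration spots, non-members are given as counts, medians and, for tissue lists, highest intensities, with 1 miR-125 probe named per direction. Calibration pair Ctr07-3M05 was named after its values were seen. Precision is limited by 1 array per group. Alternatives covered background, scaling, detection, threshold, repeat spots and the deposited table, which was quantile-normalized after adding a pseudocount of 50 and taking log2.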

Additional observations from a re-analysis of the deposited data

How the results depend on the processing

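Values below are medians of log2 differences unless they are counts, set against 16 lower and 3 higher members. The number of lower members stayed between 11 and 19 except with detection required on both arrays (10), and the number of higher members was 0 with no normalization, 1 with loess and 5 at 1.5-fold. Counts over all 684 probes moved too. They ran from 51 lower (offset 200) to 128 (no normalization), and from 25 higher (no normalization) to 314 (median scaling). For other fold thresholds the counts over all probes are not given. The median of all detected members (-0.88) was 0.19 with the arrays set to an equal median of the 303 probes that both detected (median scaling) and -0.053 with scaling on calibration spots. In those and with no normalization, which differ only by a constant, values relative to dre-let-7a were -2.10 for probes 1 or 2 edits away, -2.50 for the centre, -1.97 for the 3′ part, -1.47 for several regions and -0.87 for probes with a gap. The second repeat spot alone gave -0.94 for 1 or 2 edits and -0.46 for the 3′ part. Leaving out spots whose pixel SD exceeded 0.5 of the median, chosen after seeing the data, gave -0.997 and -0.70. A normexp offset of 200 gave -0.67 for the 3′ part and 0.086 for probes with a gap, which stood at -1.02 with the first spot alone. Probes changed in several regions stood at -1.36 with detection on both arrays and 0.012 with no filter. The opposite-strand median (0.50) was -0.31 with no normalization. Called members that changed sign were cin-let-7a-5p (0.032 with median scaling) and bbe-let-7a-3p (-0.024 with no normalization). The cause of these moves was not tested, except that the second spot alone and the uneven-spot setting leave out the dim LPS spot of spu-let-7. The other 98 values computed for these medians and counts moved by less than the repeat-spot spread (0.41 log2 units) or, for counts, by 1.5 times or less. Signal over background limits all members below the LPS threshold. No paired analysis was possible because each group has 1 array.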
